A study of Caenorhabditis elegans with 6 samples.

Results

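The endoplasmic reticulum (ER) is where proteins bound for secretion or for membranes are threaded in, folded and checked. Its chaperones, oxidases, translocation proteins and stress sensors were followed here by the ribosome footprints on their mRNAs in whole Caenorhabditis elegans larvae. The genes were taken from the deposited table by symbol, with a fixed list of names that did not use any measured value. The list matched 32 of 20189 protein-coding genes, and all 32 passed the filter on low counts that 10632 genes of the table passed. Their RefSeq symbols were the same as those of the table in all 32 cases. A further 4 genes that RefSeq names sec-61.A, sec-61.B, sec-61.G and atf-4 stand in the table as sec-61, Y38F2AR.9, emo-1 and atf-5. They were matched by sequence name after the table had been seen and are given separately.

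All 6 libraries came from L4 hermaphrodites that carried rpl-36A(P55Q) over the mIn1 balancer and so had 1 mutated copy of a gene for a large-subunit ribosomal protein. This kind of mutation gives ribosomes resistance to the drug cycloheximide (CHX). The CHX group held 3 libraries from animals grown from eggs for 3 days on plates with 500 µg/ml CHX, a drug that blocks translation elongation. The no CHX group held 3 libraries from animals of the same genotype grown for 2 days without the drug, and both were kept at 23 °C. Treatment and culture time cannot be told apart. Animals without the mutation were not analysed here, and an rpl-36A/mIn1 animal also carries an unmutated copy of the gene.

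Unfolded proteins in the ER set off the unfolded protein response. In animals this response has a conserved set of branches: IRE-1, which splices the mRNA of the transcription factor XBP-1, the kinase PEK-1 (PERK), which slows translation initiation, and the membrane-bound factor ATF-6. In worms the IRE-1 and XBP-1 branch raises hsp-4, a gene of the ER chaperone BiP. A count of footprints per gene does not separate spliced from unspliced xbp-1 mRNA. It also does not separate mRNA level from translation, or moving ribosomes from ribosomes held in place by the drug.

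Libraries held 1601009 to 1901815 reads. The members had between 233 (uggt-2) and 22412 (crt-1) reads over the 6 libraries, and levels are given as CPM, that is, counts scaled to the TMM-corrected total over the tested genes of the library. Values per library stand in the order of replicates 1, 2 and 3. The mutated gene rpl-36.A had 658 ± 67.4 CPM in CHX and 932 ± 66.4 CPM in no CHX (SD, n = 3 each). Markers of the germline differed between the groups: all 14 oocyte and eggshell markers rose with CHX, with summed levels of 6238 to 7029 CPM in CHX libraries and 718 to 942 CPM in no CHX libraries. Of 7 tested sperm markers 5 fell, with sums over all 9 of 163 to 183 CPM in CHX and 282 to 310.1 CPM in no CHX libraries. Of 7 intestinal markers 3 fell (3118 to 4040.4 CPM in CHX, 3901 to 4872 CPM in no CHX), and of 6 body wall muscle markers 3 fell (8844 to 10065 CPM in CHX, 11488 to 12612 CPM in no CHX). Of 6 neuronal markers 2 rose (316 to 335 CPM in CHX, 231 to 281 CPM in no CHX), and none of 6 hypodermal markers passed (423 to 907 CPM in CHX, 532 to 749.9 CPM in no CHX). No marker was at 0 in all 6 libraries, and 2 more sperm markers had too few reads to be tested. In whole animals, fewer cells of a type and fewer footprints per cell cannot be told apart, and the part that tissue make-up has in the ER values was not tested.

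One library stood apart for some of the ER genes and for other lists. In no CHX replicate 3, 5 of the 32 members were at least 1.5-fold above the mean of the other no CHX libraries and none was as far below it. Over all tested genes, 5.41% were that far above in this library, and the highest such share of any library was 5.49%, in CHX replicate 1. In no CHX replicates 1 and 2 and in the CHX libraries, no member was 1.5-fold above its group mates. In no CHX replicates 1 and 2, 5 and 3 members were at least 1.5-fold below the mean of the other libraries of the group. A high replicate 3 raises that mean, but ire-1 was low in replicate 1 with replicate 3 at only 1.06-fold. It had 31.1 CPM there, against 53.7 and 44.9 CPM in replicates 2 and 3. The member median in this log2 ratio was -0.17 in no CHX replicate 1 and 0.14 in no CHX replicate 3. The members that stood out in no CHX replicate 3 were the choline kinase gene ckb-2 at 5.78-fold, hsp-4 at 2.90-fold, dnj-28 at 2.05-fold, pek-1 at 2.01-fold and xbp-1 at 1.59-fold. Among 10632 genes ordered by this ratio, with 1 CPM added to both sides, ckb-2 ranked 3 and hsp-4 ranked 14. Heat-inducible genes of the cytosol were high in the same library: hsp-16.2 had 519 CPM there against 111 and 170 CPM in no CHX replicates 1 and 2, and hsp-70 had 416 CPM against 161 and 157 CPM. Of the marker and chaperone lists, in log2 over the mean of no CHX replicates 1 and 2, oocyte and eggshell markers had a median of 0.40 there, with 5 of 14 at least 1.5-fold above. Cytosolic chaperones had a median of 0.32 and intestinal markers -0.39, beside 0.14 for the 32 members. The part of these shifts in the ER values was not tested. Results that rest on this library are given with and without it. It was singled out by its high values for these 5 members. Dropping it must therefore raise their fold changes, and their p-values without it are descriptions.

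The 32 genes together had 15445, 13498 and 14499 CPM in the CHX libraries, against 12544, 14117 and 16613 CPM in the no CHX libraries. The ranges overlapped, and the ratio of the means was 1.00, with 14481 ± 974 CPM in CHX and 14425 ± 2052 CPM in no CHX (SD, n = 3 each). Within this sum 3 members rose and 7 fell, and 22 did not pass at an adjusted p under 0.05 in edgeR. That is 31.2% called, with 9.38% higher and 21.9% lower, beside 42.2% of all tested genes, with 22.2% higher and 20% lower. Among the 1643 genes with a mean of 105 to 493 CPM, the range between the quartiles of the members, 20.6% rose and 36.8% fell. The median log2 fold change of the members was -0.05 and that of all tested genes 0.03. Values did not overlap between the groups for 12 members, 4 with CHX above and 8 with CHX below, beside 52.5% of all tested genes, with 27.7% above and 24.7% below. The risers were pek-1, atf-6 and cnx-1, and the fallers were uggt-2, manf-1, dnj-20 and trap-1 to trap-4.

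**Figure D1:**
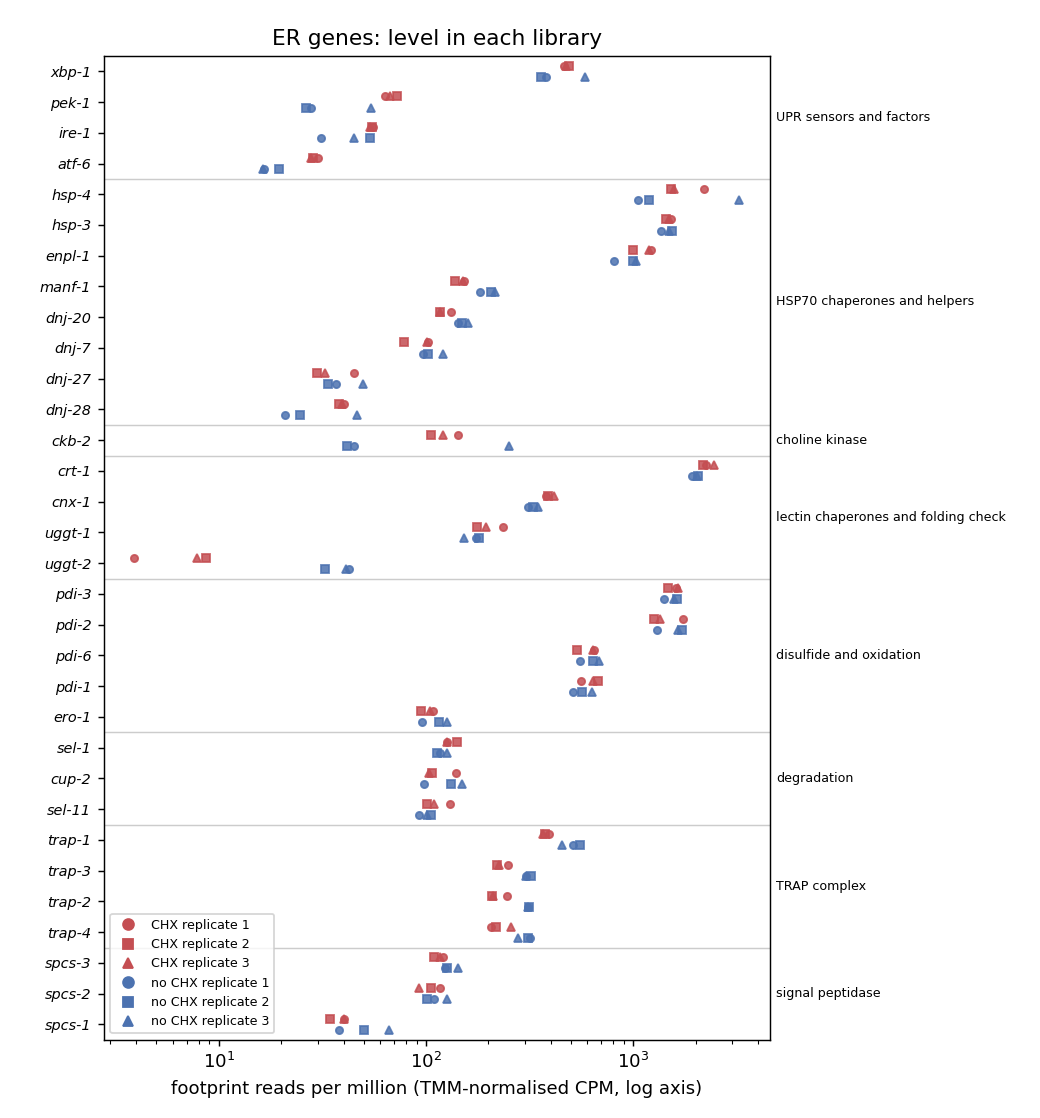
Level of each of the 32 ER genes in each library, in TMM-normalised CPM on a log axis, with CHX (red) drawn above no CHX (blue) for each gene and a symbol for each replicate. The no CHX replicate 3 point (blue triangle) lies to the right of the other no CHX points for hsp-4, ckb-2, xbp-1, pek-1 and dnj-28, and uggt-2 shows the widest gap between the groups.

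Of the 3 members that rose, pek-1 and atf-6 encode sensors of the unfolded protein response. The PERK gene pek-1 (WBGene00003970, WBcel235 chromosome X, 11410181 to 11414887, minus strand) had 63.1, 72.2 and 67.0 CPM in the CHX libraries and 27.9, 26.3 and 54.4 CPM in the no CHX libraries. Every CHX library lay above every no CHX library, and no CHX replicate 3 was the nearest to them. Its log2 fold change was 0.89 (SE 0.24, edgeR adjusted p = 0.0112). Without no CHX replicate 3, which was singled out by its high value here, it was 1.27 (SE 0.17, edgeR adjusted p = 4.5e-06), as a description only. The gene did not pass a test against a 1.5-fold change.

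The gene of the ER membrane-bound factor ATF-6 (WBGene00000222, chromosome X, 12480948 to 12484904, plus strand) also rose. It had 30.2, 28.6 and 27.7 CPM in the CHX libraries, against 16.5, 19.4 and 16.3 CPM in the no CHX libraries. The groups were well apart and no library stood out in either. The log2 fold change of atf-6 was 0.73 (SE 0.20, edgeR adjusted p = 0.00688), and leaving out a library gave values from 0.63 to 0.76, all called. With DESeq2 the call ended (adjusted p = 0.0555).

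The kinase and RNase gene ire-1 (WBGene00002147, chromosome II, 8112262 to 8124910, minus strand) stood at 55.3, 54.8 and 53.4 CPM in the CHX libraries and 31.1, 53.7 and 44.9 CPM in the no CHX libraries. The CHX libraries were close together, and no CHX replicate 2 reached their level. The log2 fold change of 0.33 did not pass (SE 0.17, edgeR adjusted p = 0.14). The gene unc-105, of an ion channel subunit, lies wholly within the span of ire-1 on the other strand, and it had 78 reads against 512 for ire-1.

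Its substrate xbp-1 (WBGene00006959, chromosome III, 4193809 to 4195358, plus strand) had 464, 489 and 475 CPM in the CHX libraries. The no CHX libraries had 381, 357 and 586.5 CPM of it. The CHX values lay between no CHX replicates 1 and 2 below and no CHX replicate 3 above. With all libraries the log2 fold change was 0.11 (SE 0.17, edgeR adjusted p = 0.656). Without no CHX replicate 3, which was singled out by its high value here, it was 0.33 (SE 0.10, edgeR adjusted p = 0.0129), as a description only. The translation-controlled factor that RefSeq names atf-4 (atf-5 in the table), a factor downstream of eIF2 phosphorylation, had 0.52 to 2.49 CPM in CHX and 0.63 to 2.81 CPM in no CHX libraries and was not tested.

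The pair of BiP genes differed from each other in spread. BiP is the HSP70 chaperone of the ER lumen, and worms have the copies hsp-3 and hsp-4, of which hsp-4 is the known reporter gene of ER stress. For hsp-4 (WBGene00002008, chromosome II, 7350121 to 7352636, minus strand) there were 2201, 1526 and 1569.8 CPM in the CHX libraries. The no CHX libraries had 1049, 1192 and 3247 CPM. All CHX libraries lay above no CHX replicates 1 and 2 and below no CHX replicate 3. The log2 fold change was -0.05 (SE 0.54, edgeR adjusted p = 0.953). Without no CHX replicate 3, which was singled out by its high value here, it turned to 0.62 (SE 0.17, edgeR adjusted p = 0.0237), as a description only.

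Levels of hsp-3 (WBGene00002007, chromosome X, 6089034 to 6092124, minus strand) were 1513, 1434 and 1486 CPM in the CHX libraries and 1357, 1538 and 1491 CPM in the no CHX libraries. No library stood out, and the groups overlapped (log2 fold change 0.02, SE 0.087, edgeR adjusted p = 0.909). The ratio of hsp-4 to hsp-3 footprints was 1.46, 1.06 and 1.06 in the CHX libraries, against 0.773, 0.775 and 2.18 in the no CHX libraries. The log2 ratio averaged 0.24 ± 0.26 in CHX and 0.13 ± 0.86 in no CHX, with a two-sided exact permutation p of 1 (3 libraries against 3, where the smallest possible p is 0.1). The difference was 0.11 with all libraries and 0.61 without no CHX replicate 3. Related genes can share reads, and the sources used here do not say how reads with several matches were treated.

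The neurotrophic factor homologue manf-1, which binds BiP in mammals, fell to 147 ± 8.29 CPM in CHX, against 201 ± 16.8 CPM in no CHX (log2 fold change -0.45, SE 0.11, edgeR adjusted p = 0.00265). The J-domain co-chaperone gene dnj-20 fell to 122 ± 8.18 CPM, against 150.4 ± 8.68 CPM in no CHX (-0.30, edgeR adjusted p = 0.0343), and did not pass without no CHX replicate 3 (edgeR adjusted p = 0.0507), without CHX replicate 2 (0.108), without CHX replicate 3 (0.114) or with DESeq2 (adjusted p = 0.0931). The ER HSP90 gene enpl-1 had 1214, 993 and 1185 CPM in the CHX libraries and 807, 997 and 1035 CPM in the no CHX libraries, which overlapped (0.26, edgeR adjusted p = 0.0645). The call of enpl-1 turned on CHX replicate 2, without which it was 0.34 and passed (edgeR adjusted p = 0.029).

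The remaining J-domain genes had log2 fold changes of -0.18 (dnj-7) and -0.16 (dnj-27), neither of which passed. The third, dnj-28, had 40.2, 37.98 and 39.3 CPM in the CHX libraries, against 20.9, 24.6 and 46.6 CPM in the no CHX libraries. Its CHX values were nearly equal and again lay between no CHX replicate 3 and the other no CHX libraries. With all libraries dnj-28 did not pass (0.34, SE 0.25, edgeR adjusted p = 0.298). Without no CHX replicate 3, which was singled out by its high value here, dnj-28 had 0.74 (SE 0.20, edgeR adjusted p = 0.00483), as a description only.

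The same split was widest for ckb-2 (WBGene00000512, chromosome III, 4367832 to 4370160, plus strand), whose product phosphorylates choline on the way to phosphatidylcholine, the main membrane lipid. It had 143, 106 and 120 CPM in the CHX libraries and 45.03, 41.7 and 251 CPM in the no CHX libraries. Each CHX library had more than 2-fold the level of no CHX replicates 1 and 2, and less than no CHX replicate 3. The log2 fold change was 0.12 (SE 0.83, edgeR adjusted p = 0.93) with all libraries. Without no CHX replicate 3, which was singled out by its high value here, it was 1.47 (SE 0.16, edgeR adjusted p = 3.5e-07), as a description only. For 4 members, ckb-2, hsp-4, dnj-28 and pek-1, the coefficient of variation over no CHX libraries was above 30%, at 106%, 67.2%, 45.2% and 43.6%. In CHX libraries these genes had 15.2%, 21.4%, 2.89% and 6.76%.

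**Figure D2:**
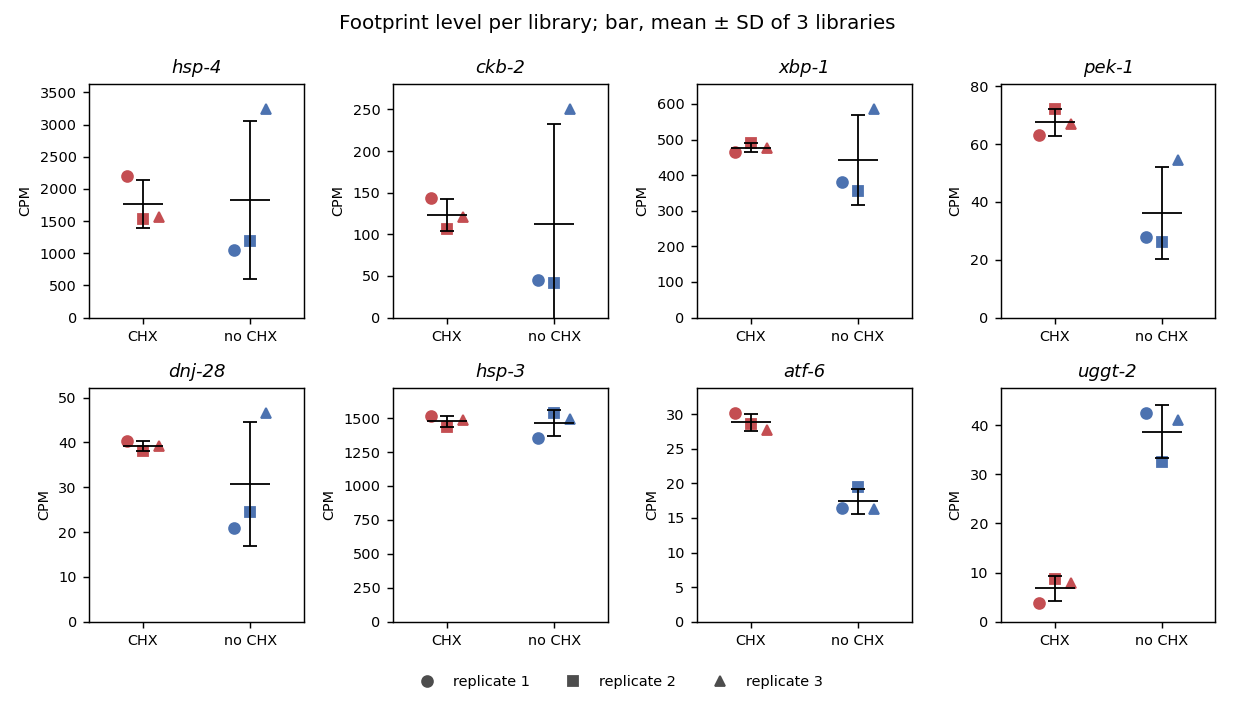
CPM of 8 ER genes in each library on linear axes from 0, CHX left of no CHX, with the mean ± SD of 3 libraries as bars and a symbol for each replicate. For hsp-4, ckb-2, xbp-1 and dnj-28 the no CHX replicate 3 triangle lies above every CHX point and the other no CHX points lie below them, while hsp-3 is level and atf-6 and uggt-2 separate the groups in opposite directions.

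Counted without no CHX replicate 3, 7 members rose (ckb-2, pek-1, dnj-28, atf-6, hsp-4, xbp-1 and cnx-1) and 6 fell. That library was chosen because it was high for ckb-2, pek-1, dnj-28, hsp-4 and xbp-1, so this count is a description. Of all 10912 genes tested in that fit 39.7% were called, with 19.3% higher and 20.4% lower. The summed level of the members was 1.09 times higher in CHX in that comparison. Leaving out any other library gave 2 to 4 risers and 6 to 8 fallers.

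Lectin chaperones bind the sugar chains of new glycoproteins, and the glucosyltransferase UGGT marks those not yet folded for another round. Calnexin, cnx-1, rose to 395 ± 20.2 CPM in CHX, against 329 ± 19.0 CPM in no CHX (log2 fold change 0.26, SE 0.094, edgeR adjusted p = 0.0312), and did not overlap. Its call ended with other size factors (edgeR adjusted p = 0.054 with RLE), with DESeq2 (adjusted p = 0.154) and without CHX replicate 2 (edgeR adjusted p = 0.067), CHX replicate 3 (0.115), no CHX replicate 1 (0.192) or no CHX replicate 2 (0.132). Calreticulin, crt-1, the member with the most reads, had 2249.6, 2168.5 and 2446.5 CPM in the CHX libraries, all above its 1918, 2047 and 2034 CPM in the no CHX libraries. The difference of 0.19 on the log2 scale did not pass (SE 0.086, edgeR adjusted p = 0.0781). The glucosyltransferase gene uggt-1 had 202 ± 30.5 CPM in CHX and 169 ± 14.8 CPM in no CHX (0.26, edgeR adjusted p = 0.0949), and passed without CHX replicate 2 (0.35, edgeR adjusted p = 0.0448).

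Its paralogue uggt-2 (WBGene00009178, chromosome I, 9317736 to 9327279, plus strand) showed the largest change of all members. It had 7, 14 and 15 reads in the CHX libraries and 67, 57 and 73 reads in the no CHX libraries, or 3.91, 8.72 and 7.85 CPM in CHX against 42.5, 32.6 and 40.97 CPM in no CHX. The groups did not overlap, and the level was 5.64-fold higher in no CHX (log2 fold change -2.50, SE 0.26, edgeR adjusted p = 9.1e-07). It was also the only member that passed a test against a 1.5-fold change, which 4.55% of all tested genes passed as lower and 8.59% as higher. Without any 1 library the log2 fold change lay between -2.69 and -2.21, and the call held. The heat-inducible gene hsp-70 lies inside the span of uggt-2 on the other strand, and the sources used here do not say whether reads were counted by strand. That gene had 119.3 to 136 CPM in CHX libraries and 161, 157 and 416 CPM in the no CHX libraries. It too lay lower in every CHX library, but did not pass (log2 fold change -0.93, edgeR adjusted p = 0.196). The uggt-2 level in no CHX replicate 3 was within the range of the other no CHX libraries. Whether hsp-70 reads enter the uggt-2 counts was not tested.

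No gene of disulfide formation passed. For pdi-1, pdi-2, pdi-3, pdi-6 and ero-1 the log2 fold changes ran from -0.13 (ero-1) to 0.13 (pdi-1), and 0 of these 5 passed in edgeR at an unadjusted p under 0.05 or in DESeq2. Protein disulfide isomerases make and reshuffle disulfide bonds, and ERO-1 reoxidises the isomerases. For pdi-3 there were 1608, 1471 and 1636 CPM in the CHX libraries, against 1412, 1618 and 1577 CPM in the no CHX libraries. The groups overlapped fully (0.03, SE 0.089, edgeR adjusted p = 0.796). For pdi-2, which also serves as the beta subunit of collagen prolyl 4-hydroxylase, the values were 1736, 1259.5 and 1343 CPM in CHX and 1307, 1722 and 1651 CPM in the no CHX libraries. These overlapped as well (-0.11, SE 0.13, edgeR adjusted p = 0.551). The isomerase gene pdi-6 had 608 ± 63.6 CPM in CHX and 626 ± 64.6 CPM in no CHX (-0.04), and pdi-1 had 624 ± 60.3 CPM in CHX and 570 ± 59.4 CPM in no CHX.

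An alpha subunit gene of that hydroxylase did change. The gene dpy-18 fell to 403, 313 and 298 CPM in the CHX libraries, against 551, 678 and 758 CPM in the no CHX libraries, with no overlap (log2 fold change -0.97, SE 0.14, edgeR adjusted p = 1.1e-04). Of 4 collagen hydroxylation genes tested 3 fell, with a median of -0.52, beside 20% of all tested genes called lower. The other fallers were the lysyl hydroxylase gene let-268 (-0.53) and phy-2 (-0.51, edgeR adjusted p = 0.0322). For both of these the libraries of the groups overlapped. The count of fallers was 1 without CHX replicate 2, CHX replicate 3, no CHX replicate 1 or no CHX replicate 2.

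The 3 members that act in returning misfolded proteins to the cytosol for degradation did not pass. Of these, sel-1 and sel-11, which encode the HRD3 and HRD1 parts of an ER ubiquitin ligase, and cup-2, a Derlin gene, had log2 fold changes of 0.14, 0.19 and -0.12. Among 15 other genes of ER-associated degradation, 2 fell and none rose (over all tested genes, 20% lower and 22.2% higher), with a median of 0.08. These were the ubiquitin ligase gene rnf-5, at 21.7 ± 2.12 CPM in CHX and 35.1 ± 1.78 CPM in no CHX (-0.68), and cdc-48.2, a gene of the extracting ATPase p97, at 543 ± 18.8 CPM in CHX and 809 ± 27.3 CPM in no CHX (-0.58, edgeR adjusted p = 4.9e-05). Its paralogue cdc-48.1 had 0.13 and did not pass. Without no CHX replicate 3, 1 gene of this list rose.

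All genes of the TRAP complex fell. The TRAP complex sits beside the translocation channel and assists the entry of some secretory proteins. Its 4 genes had log2 fold changes between -0.49 and -0.41, and in each the 3 CHX libraries lay below the 3 no CHX libraries. Over all tested genes, 20% were called lower and 24.7% had every CHX library below every no CHX library. In the abundance range of the members, 36.8% were called lower. The gene trap-1 had 393, 374 and 365 CPM in the CHX libraries, against 511, 555 and 451 CPM in the no CHX libraries (log2 fold change -0.42, edgeR adjusted p = 0.0021). The gene trap-2 had 246, 207 and 211 CPM in CHX, against 312, 313 and 309 CPM in the no CHX libraries (-0.49, edgeR adjusted p = 7.5e-04). No CHX replicate 3 was level with or below its group mates for these genes, at 0.846-fold for trap-1 and 0.878-fold for trap-4. For trap-3 the means were 231 ± 14.5 CPM in CHX and 309.5 ± 11.1 CPM in no CHX, and for trap-4 they were 227 ± 25.7 CPM in CHX and 302 ± 22.5 CPM in no CHX (SD, n = 3 each). The 4 calls held under every scaling, filter, tool and left-out library tried, with the median between -0.53 and -0.40, and none passed a test against a 1.5-fold change.

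Genes of the SEC61 channel itself fell too. Its alpha subunit gene, sec-61 in the table, fell to 908, 794 and 851 CPM in the CHX libraries, against 1383, 1357 and 1104 CPM in the no CHX libraries (log2 fold change -0.59, SE 0.10, edgeR adjusted p = 1.5e-04). The beta subunit gene Y38F2AR.9 had 136 ± 18.05 CPM in CHX and 205 ± 4.50 CPM in no CHX (-0.59, edgeR adjusted p = 4.5e-04). The gamma subunit gene emo-1 had 243 ± 15.1 CPM in CHX and 372 ± 19.2 CPM in no CHX (-0.61, edgeR adjusted p = 7.1e-05). Together with the TRAP genes, 7 of 7 genes fell, with a median of -0.49. Over all tested genes 20% were lower, and in the abundance range of the members 36.8%. The SEC61 genes were added after their values were seen, so this count is a description. Adding them to the members makes 3 risers and 10 fallers of 35 tested, beside 22.2% and 20% of all tested genes.

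The signal peptidase complex cuts off the signal sequence once a chain has entered. Its genes spcs-1, spcs-2 and spcs-3 had log2 fold changes of -0.43, -0.10 and -0.18, and none passed. For spcs-1 there were 40.2, 34.2 and 40.3 CPM in the CHX libraries, against 38.1, 50.3 and 66.2 CPM in the no CHX libraries, where the spread was wide. Without no CHX replicate 1 it passed (-0.64, edgeR adjusted p = 0.0106). Of 10 genes for targeting and membrane insertion, 3 fell and none rose (over all tested genes, 20% lower and 22.2% higher), with a median of -0.15. Among them was emc-2, a gene of an ER membrane insertase, with 48.1 ± 5.10 CPM in CHX and 71.5 ± 5.68 CPM in no CHX (-0.57, edgeR adjusted p = 0.00326).

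**Figure D3:**
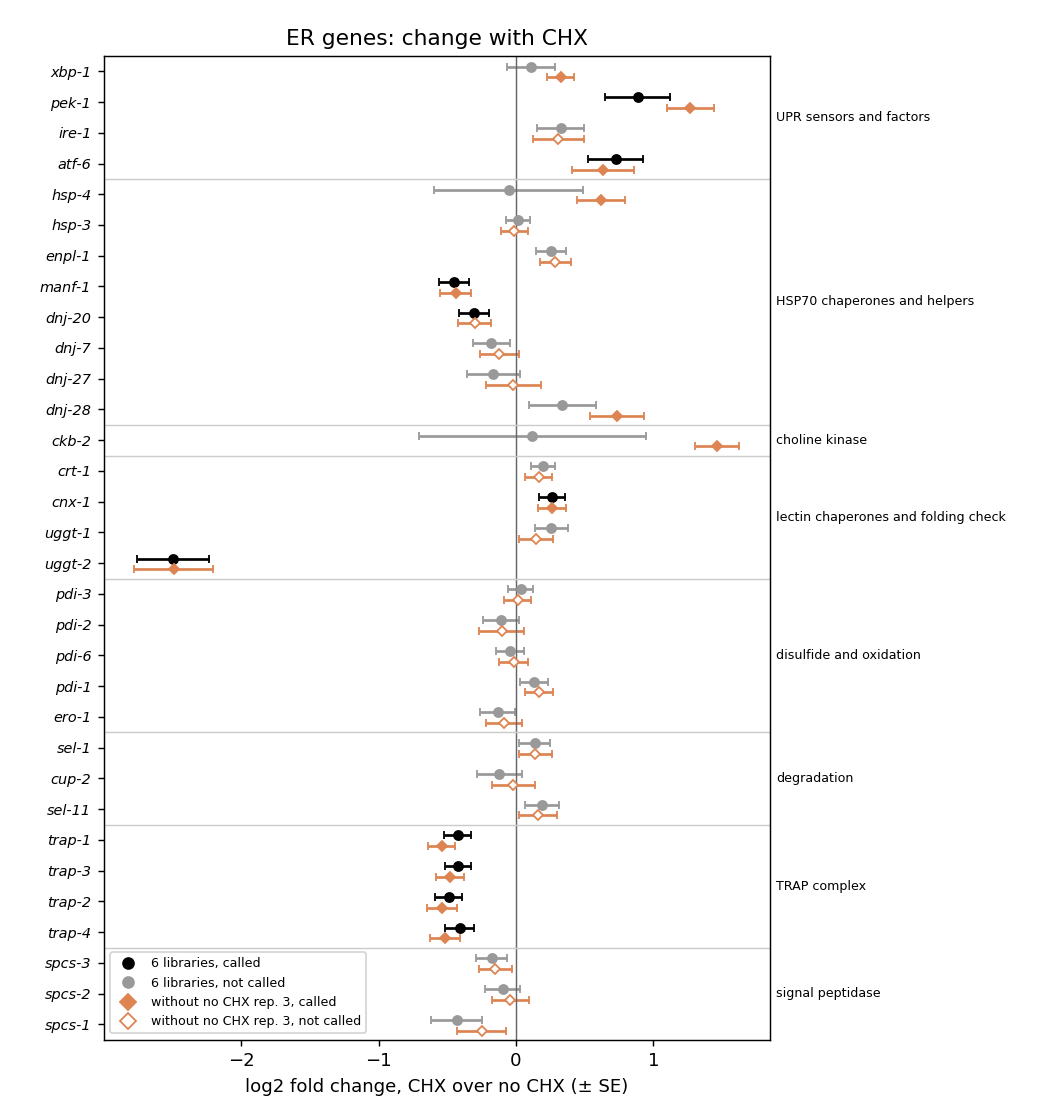
Log2 fold change of CHX over no CHX (± SE) for the 32 ER genes with all 6 libraries (circles, black where called at an adjusted p under 0.05) and without no CHX replicate 3 (diamonds, filled where called). The TRAP genes lie between -0.54 and -0.41 in both, whereas ckb-2, hsp-4, dnj-28, xbp-1 and pek-1 move to the right when that library is left out.

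Sugar chains are added as proteins enter. The median over 20 N-glycosylation genes was -0.05, with 2 called higher and 2 lower, beside 22.2% and 20% of all tested genes. The mannosyltransferase gene algn-12 rose to 54.3 ± 9.26 CPM in CHX, against 22.2 ± 1.95 CPM in no CHX (1.29, edgeR adjusted p = 2.0e-05), and algn-1 also rose (0.49). The oligosaccharyltransferase gene ostb-1 (-0.42) and the dolichol-phosphate mannose synthase gene dpm-1 (-0.38) fell. Only 1 of these genes rose with DESeq2, without the filter on low counts, or without any 1 of CHX replicates 2 and 3 and no CHX replicates 1 and 2.

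Of 10 genes of COPII vesicles, which leave the ER, 3 fell, led by tfg-1 (151 ± 8.89 CPM in CHX, 214 ± 11.9 CPM in no CHX, -0.50) and sec-23 (-0.29), with a median of -0.20. Without no CHX replicate 3, 6 fell, and 1 fell with DESeq2 or without CHX replicate 2, CHX replicate 3 or no CHX replicate 2. Of 9 genes of COPI vesicles and KDEL receptors, which bring escaped ER proteins back, 3 fell, among them the receptor gene erd-2.1 (65.0 ± 11.6 CPM in CHX, 105 ± 13.2 CPM in no CHX, -0.69, edgeR adjusted p = 0.00101) and the coat gene copz-1 (-0.44), and 1 fell without CHX replicate 2. The second KDEL receptor gene, erd-2.2, had -0.11 and did not pass. Beside the COPII and COPI counts, 20% of all tested genes were lower, and 36.8% of those in the abundance range of the members.

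PEK-1 acts on the initiation factor eIF2. In a list of 11 genes, of eIF2, its exchange factor and the integrated stress response, 1 was called higher and 5 lower, and the median was -0.31. Over all tested genes 22.2% were higher and 20% lower. The list also holds rtcb-1, an RNA ligase gene of the IRE-1 branch, which did not pass (-0.34, edgeR adjusted p = 0.124). The gene of the eIF2 gamma subunit, eif-2gamma, fell to 259 ± 32.0 CPM in CHX, against 405 ± 14.7 CPM in no CHX (-0.64, edgeR adjusted p = 9.1e-05), and eif-2beta fell by 0.43 on the log2 scale. The riser was gcn-2, the other eIF2 kinase gene, with 44.7, 41.1 and 38.7 CPM in the CHX libraries, against 24.1, 22.9 and 28.1 CPM in the no CHX libraries (0.73, SE 0.17, edgeR adjusted p = 0.00232). Both eIF2 kinase genes, pek-1 and gcn-2, were higher in every CHX library than in every no CHX library, as were 27.7% of all tested genes. With DESeq2, or without CHX replicate 1, 3 genes of this list fell.

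Across these 7 lists of secretory pathway and eIF2 genes, 79 of 80 genes were tested, of which 3 rose and 21 fell, and the median was -0.15. Over all tested genes, 22.2% were higher and 20% lower, and in the abundance range given above 36.8% were lower. That range was set by the ER members and was not matched to these lists. Some list genes lie below it, such as algn-12 (mean 38.3 CPM) and emc-2 (mean 59.8 CPM). Cytosolic chaperone genes and a mixed list of mitochondrial chaperone, protease and import genes are set beside these. Of 22 cytosolic chaperone genes 19 fell and none rose, with a median of -0.36, for example the chaperonin gene cct-6 (257 ± 7.77 CPM in CHX, 410.3 ± 23.8 CPM in no CHX, -0.68) and the prefoldin gene pfd-5 (-0.65). Of 14 mitochondrial chaperone, protease and import genes 10 fell and none rose, with a median of -0.49, led by the import genes timm-17B.1 (-0.73) and tomm-22 (-0.70). Of the chaperone genes among them, hsp-60 (-0.65) and dnj-10 (-0.35) fell, and hsp-6 did not pass (-0.21, edgeR adjusted p = 0.0561). No test compared these lists with the ER genes. The cytosolic count was 9, 11 and 12 without CHX replicate 1, CHX replicate 2 and no CHX replicate 3.

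**Figure D4:**
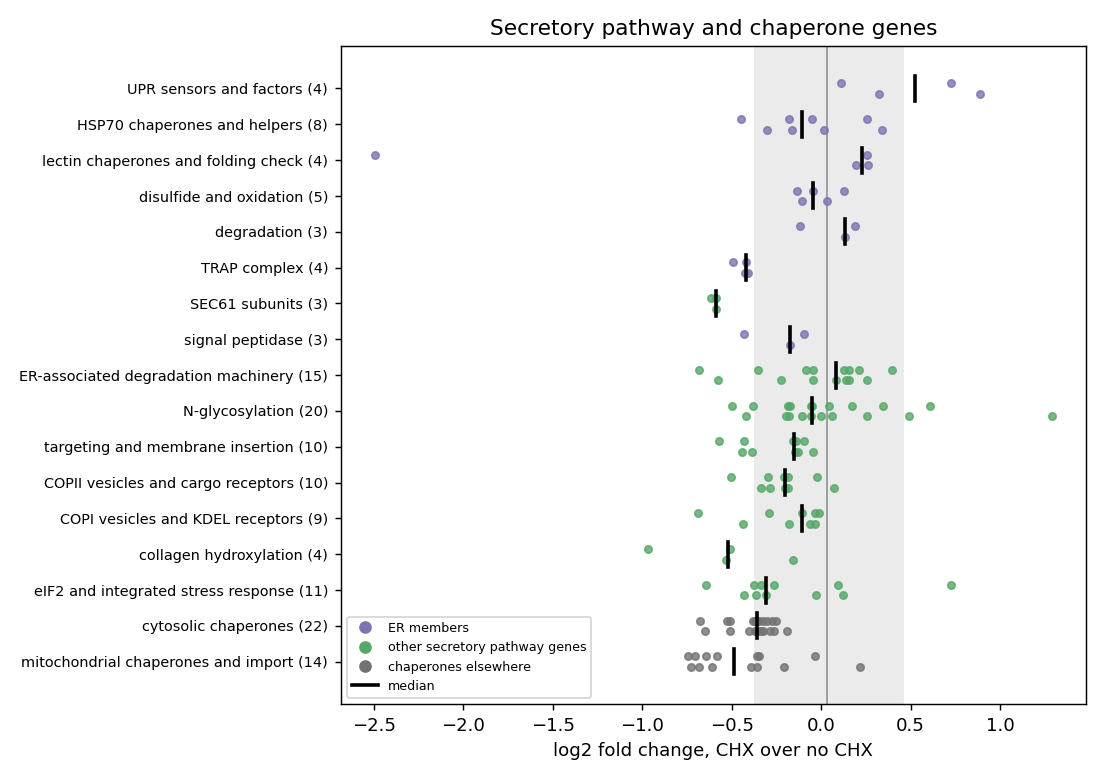
Log2 fold change of CHX over no CHX for each tested gene (points) of the ER groups, other secretory pathway lists, cytosolic chaperones and the mixed mitochondrial list. The number of genes is in brackets and the median is a black bar. The grey band is the range between the quartiles of all tested genes and the grey line their median. TRAP and SEC61 genes lie wholly below the grey line, at -0.61 to -0.41, while genes of disulfide formation stay between -0.13 and 0.13.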

How the data were processed

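Ribosome footprints were sequenced from 6 whole-worm libraries. Per the labels' protocols, ribosomes were pelleted through sucrose and gel-cut fragments went into a D-Plex library preparation. The table deposited by the authors gives raw read counts for the coding sequence of each gene, per the file headers; the build is WBcel235. The submitters' processing notes name DESeq2. For the aligner, rRNA removal, molecular identifiers, strand and multiple matches: not given in the sources used here. Deposited genomic positions (other values) gave spans only, and the length column contains introns, so levels were not compared between genes. No sequence was used here.

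Genes were filtered with filterByExpr (minimum count 10), TMM-scaled and fitted in edgeR 4.0.16 (robust quasi-likelihood, R 4.3.3) with group as the sole term and Benjamini-Hochberg adjustment over 10632 genes. CPM are TMM-normalised, errors are SDs over 3 libraries, and SEs come from the F statistic. Simulated counts for this comparison (10393 genes), with the same spread for all genes, gave 34.3%, 89.6% and 98.5% of 1.5-, 2- and 4-fold changes recovered. Counting error bounds what low counts can show.

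Members and lists were chosen with earlier results of these data known. Every member is named, with values per library for the largest changes, the BiP genes, the stress sensors and the members with most reads, and of other lists the largest called rises and falls with at least 10 CPM. The SEC61 genes, hsp-16.2 and hsp-70 were added after their values were seen. Whether replicates were separate cultures is not stated, so p-values measure the spread between these libraries. None was a near-duplicate. Deviations of same-numbered libraries correlated at -0.11, -0.08 and -0.08, so the numbers were not taken as pairs. Alternatives were RLE and upper-quartile factors, no filter, a CPM minimum of 5 on the mean, DESeq2 1.42.0, voom in limma 3.58.1, the replicate block, dropping the 100 genes with most reads, a test against 1.5-fold and dropping each library. Planned levels per codon, promoter motifs and protein ends were not run. One gene that the naming rule chose is not reported here.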

Additional observations from a re-analysis of the deposited data

How the results depend on the processing

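Of 283 values of single members under other settings, 264 kept their side of the threshold, 17 lost the call and 2 gained it. Leaving out 1 library, 178 of 192 did so, 7 lost it, 6 gained it and 1, hsp-4 without no CHX replicate 3 (0.62), turned to a called rise; over the left-out libraries hsp-4 ran from -0.37 to 0.62. With DESeq2 1 member rose and 6 fell, against a 1.5-fold change 0 rose and 1 fell, and over all genes 913 rose and 484 fell in that test. Leaving out 1 library gave 2 to 7 member risers and 6 to 8 fallers, and a member median from -0.21 without no CHX replicate 1 to 0.040 without CHX replicate 2. Over all genes it gave 1889 to 2193 risers and 1810 to 2221 fallers. With the replicate number as a block, 2 members rose and 6 fell, the calls of cnx-1 (edgeR adjusted p = 0.0625) and dnj-20 (edgeR adjusted p = 0.0725) ended, and 2124 and 1875 of all genes rose and fell. With RLE factors 2 members rose and 7 fell, beside 21.1% and 21.4% of all genes. Without the filter 3 members rose and 8 fell, beside 15.7% and 14.4% of all genes. DESeq2 called 31.4% of all genes, against 42.2% with edgeR. The member sum was 1.05 times higher in CHX with plain library totals and 0.985 times with RLE factors. The causes were not tested. Levels per codon could not be had without coding lengths. At these depths 1.5-fold changes were found in 34.3% of simulated cases, but the simulation gave all genes the same spread. That share therefore does not carry over to single members, whose SEs ran from 0.086 (crt-1) to 0.83 (ckb-2). Members with a large SE that did not pass, such as ckb-2 and hsp-4 (SE 0.54), may still differ by 1.5-fold.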

Other observations

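Genes outside the ER lists also stood high in no CHX replicate 3, and the ones given here were chosen after their values were seen. The caenacin gene cnc-2 had 8.94, 12.5 and 11.5 CPM in the CHX libraries, against 0.634, 6.29 and 39.9 CPM in the no CHX libraries. The patched-related gene ptr-22 had 14.5, 10.6 and 12.04 CPM in the CHX libraries, against 3.81, 3.43 and 33.7 CPM in the no CHX libraries. The antimicrobial peptide gene nlp-29 had 102, 110.2 and 119.3 CPM in the CHX libraries, against 41.2, 45.7 and 124.6 CPM in the no CHX libraries. For these 3 genes the CHX values lay between no CHX replicate 3 and the other no CHX libraries, as they did for ckb-2 and hsp-4. Among the heat-inducible genes, hsp-16.41 had 100.02, 118 and 92.1 CPM in the CHX libraries, against 114, 213 and 553 CPM in the no CHX libraries. Its CHX values overlapped no CHX replicate 1 and did not lie between the other no CHX libraries and replicate 3. What set no CHX replicate 3 apart was not tested.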
